A study of Mus musculus with 8 samples.

Results

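Iron handling and heme synthesis were examined in cardiomyocytes of newborn mice through 10 genes. They were picked by symbol from a table of 48440 gene entries: Tfrc, Slc11a2, Slc25a37, Slc40a1, Fth1, Ftl1, Ireb2, Aco1, Alas1 and Fech. All 10 had an entry, and all 10 were among the 13771 genes that passed the filter on low counts. The cells were purified cardiomyocytes of C57BL6/J pups at postnatal day 2, with no treatment or genetic alteration named in the labels. A male and a female heart came from each of 4 litters, which gave 8 RNA-seq libraries, 4 per sex and 2 per litter. How the cells were purified is not stated in the labels, and the replicates are separate hearts.

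Iron enters most cells bound to transferrin, which the transferrin receptor takes up. Ferritin stores the excess as a mineral inside a protein shell, and ferroportin is the known exporter of iron from the cell. The iron regulatory proteins, a pair of cytoplasmic proteins, bind a short RNA hairpin, the iron-responsive element, when iron is scarce. Bound in a 5′ UTR they block translation, as in ferritin, and bound in a 3′ UTR they protect the message from decay, as in the transferrin receptor. Mitochondria use iron for iron-sulfur clusters and for heme, which is made in a series of steps that starts with aminolevulinate synthase and ends with ferrochelatase. A beating heart muscle cell is dense in mitochondria and holds heme in its cytochromes and in myoglobin.

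The hairpins are shown because they are the sequence feature that ties the importer, the exporter and both ferritin chains to the same regulators. The search was for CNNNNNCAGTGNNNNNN on the transcript strand, where the 5 bases before the loop CAGTGN pair with the 5 bases after it and G-T pairs are allowed. It ran on GENCODE M21 transcripts of GRCm38, the assembly also called mm10, which is the build named in the submitters' processing notes. Each line below gives 27 bases, 5′ to 3′, with the 6 loop bases in capitals. A match describes letters only and says nothing about binding in these cells.
Tfrc, 3′ UTR, chr16:32631220-32631246, plus strand: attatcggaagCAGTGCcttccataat
Tfrc, 3′ UTR, chr16:32631599-32631625, plus strand: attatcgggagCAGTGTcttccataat
Tfrc, 3′ UTR, chr16:32631664-32631690, plus strand: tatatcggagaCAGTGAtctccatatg
Tfrc, 3′ UTR, chr16:32631711-32631737, plus strand: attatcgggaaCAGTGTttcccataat
Slc40a1, 5′ UTR, chr1:45925466-45925492, minus strand: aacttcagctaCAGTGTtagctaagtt
Fth1, 5′ UTR, chr19:9982733-9982759, plus strand: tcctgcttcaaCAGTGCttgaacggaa
Ftl1, 5′ UTR, chr7:45459780-45459806, minus strand: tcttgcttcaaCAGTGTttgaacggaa
Alas2, 5′ UTR, chrX:150547459-150547485, plus strand: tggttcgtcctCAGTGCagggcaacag

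Of the 10 genes, 4 held the hairpin in a UTR of at least 1 coding transcript, against 160 of 21901 protein-coding genes (0.731%). The element is known from ferritin and the transferrin receptor, which are among the 10. This share therefore follows from the choice of genes and is no test. In the longest coding transcript, 20 genes (0.0913%) had it in the 5′ UTR and 118 (0.539%) in the 3′ UTR. Tfrc was the only gene whose longest transcript held more than 1 in the 3′ UTR, with 4. The element was annotated in 1 of 3 coding transcripts of Tfrc, 1 of 4 of Slc40a1, 4 of 5 of Fth1 and 1 of 2 of Ftl1. Gene counts do not say which transcript was present. Alas2, the erythroid form of aminolevulinate synthase, is printed for comparison with Alas1, the form of other tissues, in which these letters were not found. The search also found none in Slc11a2, Slc25a37, Ireb2, Aco1 or Fech. It allowed no bulge or unpaired base in the 5-pair stem and no other loop, so elements of another form are missed. A gene without a match may therefore still hold an element, and a gene with matches may hold more.

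Library totals ran from 14226342 to 24910243 counts, and mitochondrial genes took 13.4% to 18.5% of them. The 12 cardiomyocyte markers were all measured, and they summed to 80819 to 102556 CPM (counts scaled to a library total of 1000000), led by Myh6, the alpha myosin heavy chain. The fibroblast markers summed to 36.6 to 251 CPM and the endothelial markers to 21.3 to 187 CPM. The 12 macrophage markers summed to 5.52 to 10.4 CPM, with Fcgr1, Cd163 and Timd4 at 0 in every library. The label of cardiomyocytes therefore matched its markers. In litter 3 the cardiomyocyte sum was 80819 to 81851 CPM, against 88546 to 102556 in the other litters, and the fibroblast sum was 36.6 to 56.7 CPM, against 109 to 251. The endothelial sum was 115 to 187 CPM in litter 2, 24.95 to 25.1 CPM in litter 3 and 21.3 to 80.5 CPM in litters 1 and 4. Litter 3 stood apart from the other litters, so litter tests without it are given as well.

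Ferritin heavy chain was the most abundant of the 10 messages with either measure of gene length. Levels are compared between genes only as CPM per kilobase of merged exon, with the mean and SD over 8 libraries. Fth1, the ferritin chain with the enzyme that oxidizes iron, was at 306 ± 23.4 CPM per kilobase (SD, n = 8). Ftl1, the ferritin chain that helps form the mineral core, was at 96.0 ± 16.5. Tfrc, the transferrin receptor, followed at 53.8 ± 11.7. These 3 ranges did not overlap, so the storage messages stood above the import receptor in every library. Alas1, the first enzyme of heme synthesis, was at 32.1 ± 5.87, and its range overlapped that of Tfrc although Tfrc was the higher in 8 of 8 libraries. The cytoplasmic aconitase Aco1 was at 11.6 ± 0.713 and Ireb2 at 10.98 ± 1.03, and this pair could not be ordered (Aco1 higher in 5 of 8 libraries). Fech, ferrochelatase, was at 7.72 ± 0.428. Slc11a2, the metal transporter DMT1, was at 5.48 ± 0.586 and Slc25a37, the mitochondrial iron importer mitoferrin, at 5.37 ± 1.01, and these overlapped as well. Slc40a1, ferroportin, was lowest on this length at 2.33 ± 0.281 CPM per kilobase. With the longest transcript as the length, Ireb2 (18.03) and Fech (16.3) stood above Aco1 (13.6), and Slc40a1 (5.34) overlapped Slc25a37 (5.45), which was the higher in 4 of 8 libraries. The order of Aco1, Ireb2 and Fech thus rests on the choice of length, and so does the gap between Slc40a1 and Slc25a37. Fth1, Ftl1 and Tfrc kept their order on both lengths.

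**Figure D1:**
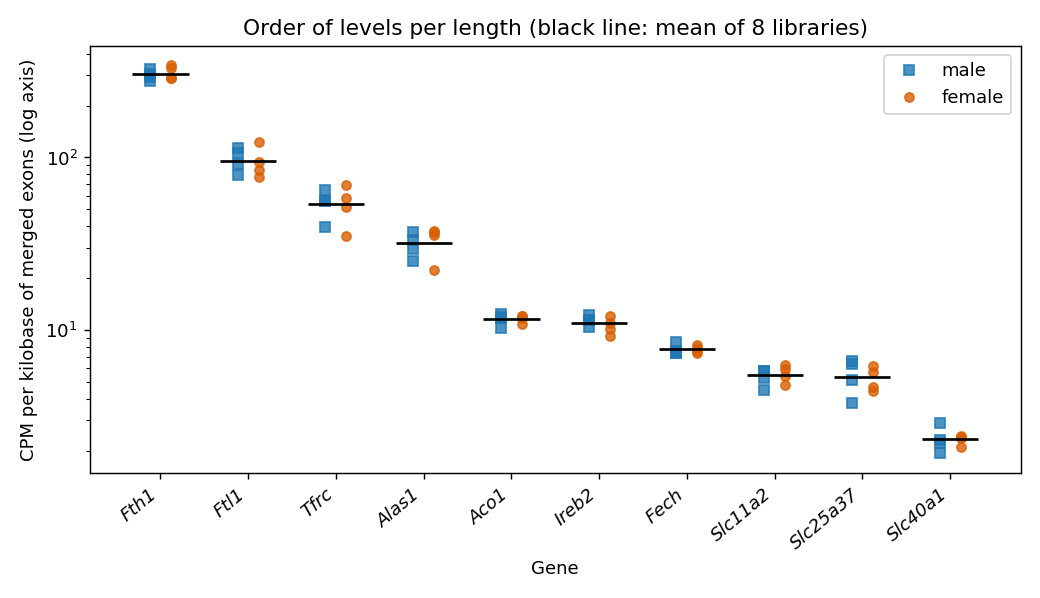
Level of each gene in CPM per kilobase of merged exon (vertical log axis), with 1 point per library, squares for males, circles for females and a black line at the mean of 8 libraries. The genes run from Fth1, with a mean of 306, to Slc40a1, with a mean of 2.33.

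The name Fth1 stands on 2 entries of the table, which bears on all ferritin values. The entry named Fth1 was 0 in all 8 libraries, and its neighbours in the table lie on chromosome 8. The entry with a numbered copy of the name held 185023 counts, and its neighbours flank the annotated Fth1 at chr19:9980598-9985098, plus strand. That second entry was used here as Fth1. For the first, 3 counts, the limit that a count of 0 allows, correspond to 0.120 to 0.211 CPM. For Ftl1 (chr7:45457944-45459884, minus strand), 78.6% of the 100-base windows of its longest transcript occur in at least 1 other annotated gene. The pseudogene Ftl1-ps1 alone shares 59.3% of them, and its entry held 19 counts in all. How reads with several matches were counted is not given in the sources used here, so the level of Ftl1 and every ratio with it are uncertain. For Alas1 8.12% and for Slc25a37 4.86% of the windows were shared, and for Fth1 0.408%.

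Male and female cardiomyocytes were compared first, since sex is the contrast the series was built on. None of the 10 genes differed between the sexes in edgeR's quasi-likelihood test with Benjamini-Hochberg adjustment (adjusted p = 0.9996 for each), where 0.0436% of all tested genes passed at 0.05. With litter as a block, 0 of 10 passed where 0.211% of all tested genes did, and the DESeq2 Wald test also called 0 of 10. At an unadjusted p under 0.05 the count was 0 of 10 in both edgeR fits, where 2.22% of all tested genes lay without the block and 11.6% with it. The p-values measure the spread between these hearts.

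The intervals say how large a sex difference could have been missed. For Tfrc the male minus female difference was 0.03 on the log2 scale, with a 95% interval from -0.43 to 0.49 without the block and from -0.08 to 0.17 with it. For Alas1 it was -0.08, with intervals from -0.47 to 0.32 and from -0.20 to 0.08. Both intervals were narrower with the block. Fth1 gave -0.05, with a blocked interval from -0.15 to 0.06, and Fech gave a blocked interval from -0.11 to 0.11. Ireb2, which encodes iron regulatory protein 2, was the only member that was higher in the male of all 4 litters. Its blocked interval ran from -0.005 to 0.23 (edgeR adjusted p = 0.445), so it did not pass the test.

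**Figure D2:**
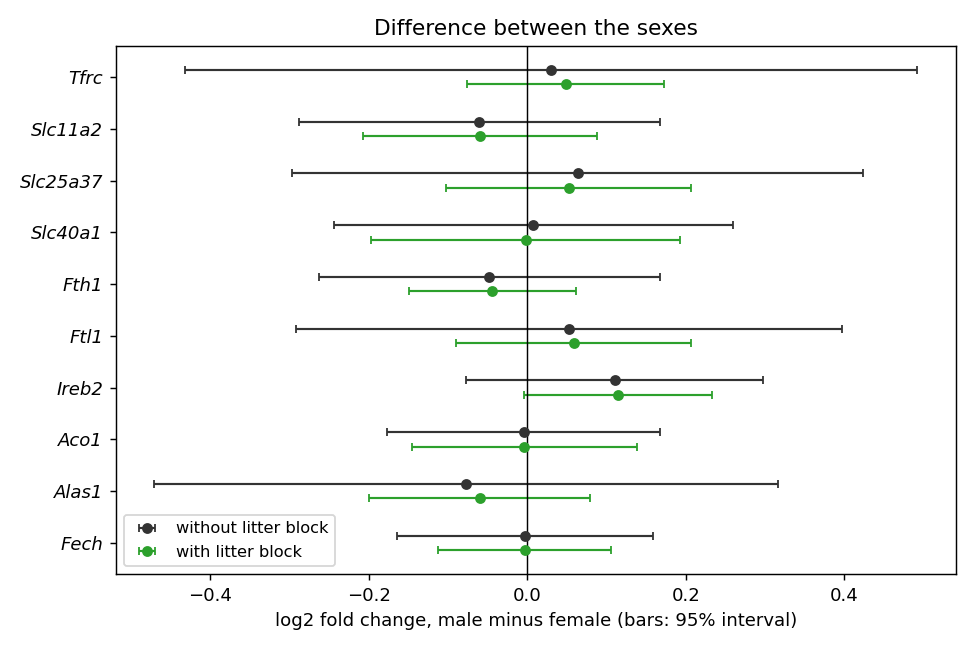
Male minus female difference of each gene on the log2 scale (horizontal axis) with its 95% interval, without (black) and with (green) litter as a block. Every interval includes 0, and Ireb2 with the block reaches from -0.005 to 0.23.

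More of the genes passed a test of litter than a test of sex. In the edgeR quasi-likelihood test of litter, with sex in the model, 5 of 10 genes passed: Tfrc, Alas1, Slc25a37, Ftl1 and Fth1. Of all tested genes 32.1% passed the same test. Without litter 3, 4 of 10 passed, where 13.7% of all tested genes did, and Alas1 was the one lost. Each litter held 1 male and 1 female, and what else a litter shared, such as the day of preparation, is not given in the labels and cannot be told apart from litter. In bulk samples, fewer cells of a type and less RNA per cell cannot be told apart either.

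**Figure D3:**
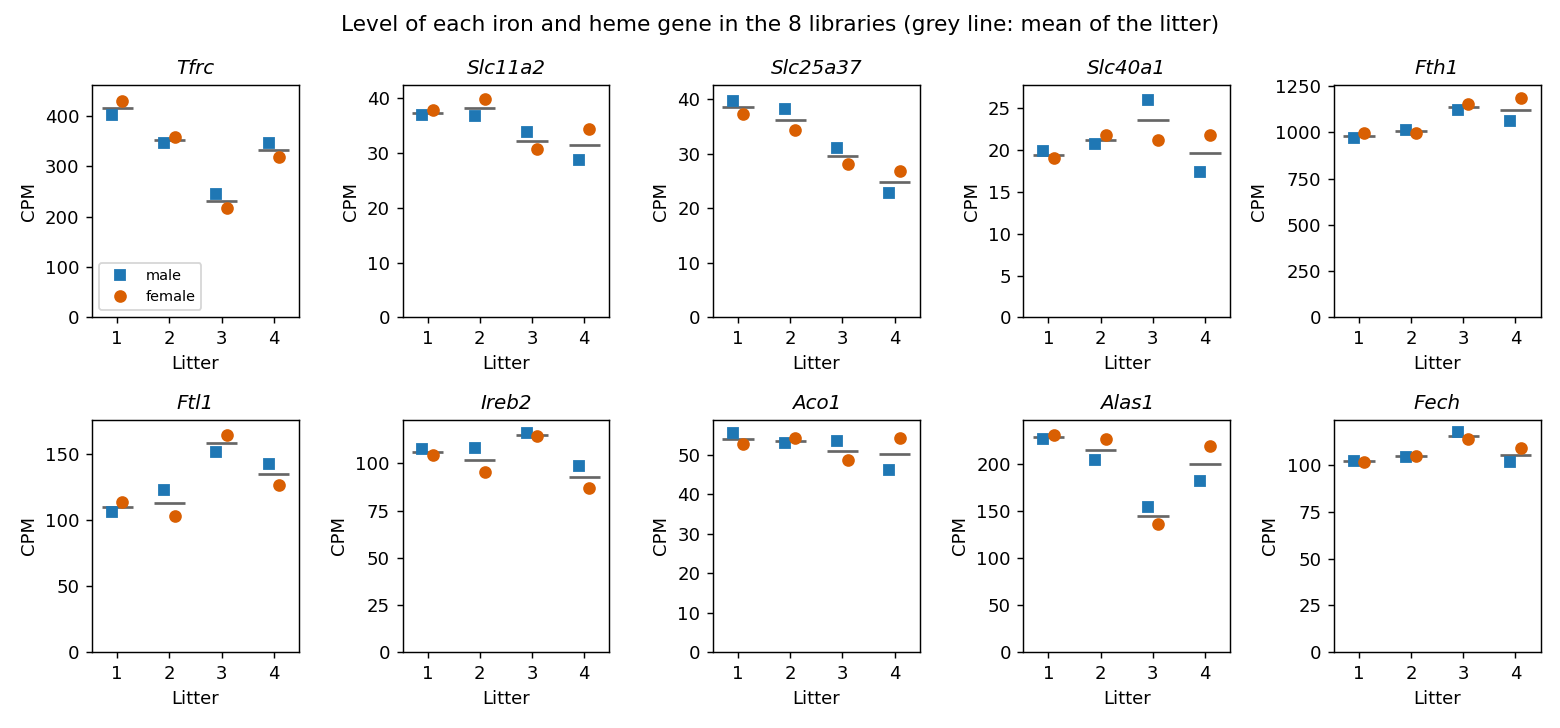
CPM of each gene (vertical axis, from 0) by litter (horizontal axis), with a square for the male, a circle for the female and a grey line at the mean of the litter. Tfrc and Alas1 are lowest in litter 3, at 217 to 245 and 137 to 154 CPM, and Ftl1 is highest there, at 151 to 164 CPM.

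Tfrc (chr16:32608920-32632794, plus strand), which brings transferrin-bound iron into the cell, changed most with litter among the 10. Male and female libraries held 403 and 429 CPM in litter 1, 346 and 358 in litter 2, 245 and 217 in litter 3, and 346 and 319 in litter 4. Litter 1 lay above all other libraries and litter 3 below all of them. Litter means spanned 0.88 on the log2 scale, against a median span of 0.37 over all tested genes (edgeR adjusted p = 0.00012). Against the mean of the other litters, litter 3 was at 0.613 times their level, a log2 difference of -0.71 (SE 0.07, edgeR adjusted p = 2.7e-05). Litter 1 was at 1.38 times, a log2 difference of 0.47 (SE 0.06, adjusted p = 0.00074). The litter 3 call held whichever of the 8 libraries was left out, while without the litter 1 female the litter 1 difference was 0.37 (adjusted p = 0.0561). Without litter 3, the span of the remaining litters was 0.26 (adjusted p = 0.0453).

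Slc25a37 (chr14:69241848-69285112, minus strand) carries iron into the mitochondrion. It held 39.7 and 37.3 CPM in litter 1, 38.3 and 34.3 in litter 2, 31.0 and 28.2 in litter 3, and 22.8 and 26.8 in litter 4, male before female. In CPM litter 4 lay below all other libraries, and litter 3 came next. The tests also scale libraries by TMM factors, 1.02 in the litter 3 female and 0.971 in the litter 4 female. With these factors the litter 4 female was no longer below the litter 3 female. Litter means spanned 0.57 (edgeR adjusted p = 0.00396), and without litter 3 the span was also 0.57 (adjusted p = 0.0072), so litter 3 did not carry this result. Litter 4 differed from the mean of the others by -0.40 (SE 0.08, adjusted p = 0.0152) and litter 1 by 0.36 (SE 0.08, adjusted p = 0.0118). Without the litter 4 male the first was -0.24 (adjusted p = 0.201). That library had the highest mitochondrial share, 18.5% against 13.4% to 15.2% in the other 7, and the part of this in the result was not tested. Without the litter 1 male the second was 0.33 (adjusted p = 0.192), and without the litter 1 female it was 0.39 (adjusted p = 0.116).

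Slc11a2 (chr15:100387898-100425072, minus strand), which moves ferrous iron across endosomal and plasma membranes, did not pass. Its libraries held 36.9 and 37.7 CPM in litter 1, 36.7 and 39.8 in litter 2, 33.8 and 30.6 in litter 3, and 28.6 and 34.3 in litter 4. All litters overlapped (edgeR adjusted p = 0.109). Slc40a1 (chr1:45908068-45926523, minus strand), the exporter, held 17.4 to 26.0 CPM with a mean of 21.0 ± 2.53 (SD, n = 8). The litter 3 male was highest at 26.0 CPM and the litter 4 male lowest at 17.4 CPM, and the litter test gave an edgeR adjusted p of 0.364.

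The ferritin chains were measured next. Ftl1 held 106 and 113 CPM in litter 1, 122 and 103 in litter 2, 151 and 164 in litter 3, and 142 and 127 in litter 4. In CPM both litter 3 libraries lay above all others. The TMM factors used in the tests were 1.02 in the litter 3 male and 0.951 in the litter 4 male. With them the litter 3 male was not above the litter 4 male. Litter means spanned 0.50 (edgeR adjusted p = 0.00442), and 0.35 without litter 3 (adjusted p = 0.0265). Litter 3 was at 1.29 times the mean of the others, a log2 difference of 0.37 (SE 0.08, adjusted p = 0.00416), which fell to 0.25 without the litter 3 female (adjusted p = 0.125). Litter 1 was lower by a log2 difference of -0.29 (SE 0.08, adjusted p = 0.0323). That call was lost without either litter 1 library, the litter 2 male, the litter 3 female or the litter 4 male, with differences from -0.40 to -0.19.

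Fth1 held 968 and 998 CPM in litter 1, 1016 and 997 in litter 2, 1122 and 1151 in litter 3, and 1060 and 1186 in litter 4. The 4 libraries of litters 3 and 4 lay above the 4 of litters 1 and 2, a split seen in the values and not tested as such. The span of litter means was 0.25 (edgeR adjusted p = 0.0289), which is below the median span of all tested genes. The call did not hold when the litter 1 male (adjusted p = 0.119), the litter 1 female (0.127), the litter 2 female (0.0629), the litter 3 female (0.0646) or the litter 4 female (0.0600) was left out.

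Neither iron regulatory protein passed the litter test. Ireb2 (chr9:54863789-54912530, plus strand) held 108 and 104 CPM in litter 1, 108 and 95.6 in litter 2, 116 and 115 in litter 3, and 98.7 and 87.1 in litter 4. Litter 3 lay above all other libraries, but the litter test gave an edgeR adjusted p of 0.129, and 0.0347 when libraries were scaled by their totals alone. Aco1 (chr4:40143081-40198338, plus strand), which is iron regulatory protein 1 when it lacks its iron-sulfur cluster and aconitase when it has it, held 46.2 to 55.6 CPM. Its litters all overlapped, with a span of 0.11 (edgeR adjusted p = 0.742).

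Of the heme synthesis enzymes, Alas1 changed with litter and Fech did not pass. Alas1 (chr9:106233455-106248654, minus strand) held 227 and 231 CPM in litter 1, 204 and 228 in litter 2, 154 and 137 in litter 3, and 183 and 219 in litter 4. Both litter 3 libraries lay below all others. Litter means spanned 0.68 (edgeR adjusted p = 0.00101), but without litter 3 only 0.13 (adjusted p = 0.396), so this result rests on litter 3. There Alas1 was at 0.659 times the mean of the other litters, a log2 difference of -0.60 (SE 0.08, adjusted p = 0.00019), and the call held whichever of the 8 libraries was left out. Litter 1 was higher by 0.31 (SE 0.07, adjusted p = 0.0171), a call lost without its male (0.28) or its female (0.33). The mean it was compared with includes the low litter 3, and without litter 3 the litter test did not pass, as given above.

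Fech, on chromosome 18, inserts iron into protoporphyrin. It held 102 and 102 CPM in litter 1, 104 and 105 in litter 2, 117 and 114 in litter 3, and 102 and 109 in litter 4. In CPM litter 3 lay above all others, with a log2 difference of 0.11 (SE 0.06, edgeR adjusted p = 0.182). With the TMM factors, 1.02 in the litter 3 female and 0.971 in the litter 4 female, the first was not above the second. The litter 3 differences of Alas1 and Fech thus had opposite signs, and only that of Alas1 passed the test.

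Counted by litter, 3 of 10 genes passed in litter 3, 2 lower and 1 higher, where 28.3% of all tested genes passed (14.8% lower and 13.6% higher). In litter 1, 4 of 10 passed, 3 higher and 1 lower, where 13.3% of all tested genes passed (7.86% higher and 5.41% lower). That count was 1 without the litter 1 male and 0 without the litter 1 female. In litter 4, 1 of 10 passed, as lower, where 10.5% of all tested genes passed (5.8% lower), and in litter 2 it was 0 of 10 (edgeR), where 4.18% did. The 4 contrasts share libraries, so they are not independent of each other. In litter 3 the share of the 10 genes called was near that background.

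**Figure D4:**
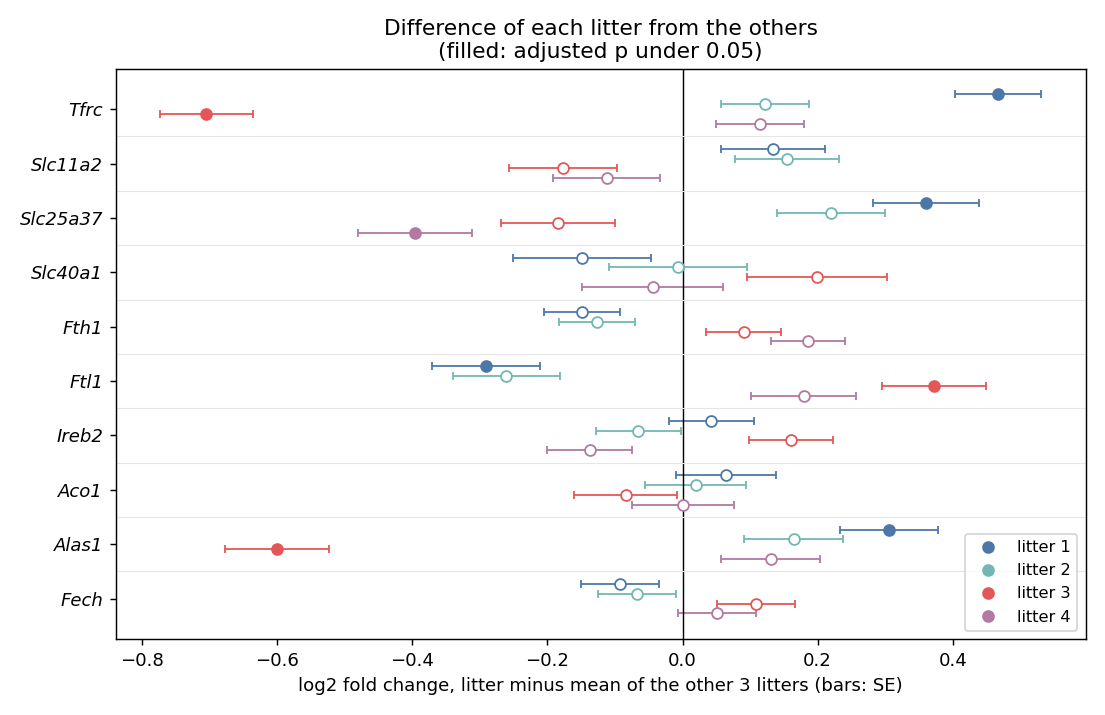
Difference of each litter from the mean of the other litters on the log2 scale (horizontal axis), with bars for the SE and filled points where the edgeR adjusted p was under 0.05. Tfrc in litter 3, at -0.71, and Alas1 in litter 3, at -0.60, lie farthest from 0.

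Ratios within a library do not depend on how libraries are scaled, and are given as a description. The log2 ratio of Tfrc to Fth1 counts was -1.27 and -1.22 in litter 1, -1.55 and -1.48 in litter 2, -2.19 and -2.41 in litter 3, and -1.62 and -1.90 in litter 4. The receptor was thus lowest against ferritin heavy chain in both litter 3 hearts. The log2 ratio of Fth1 to Ftl1 was 2.81 to 2.89 in litter 3 and 2.90 to 3.27 elsewhere, with the reservation on Ftl1 counts given above. For Alas1 to Fech, a pair outside the planned ratios, it was 0.27 to 0.40 in litter 3 and 0.84 to 1.18 elsewhere. The log2 ratio of Aco1 to Ireb2 was -1.24 to -1.11 in litter 3 and -1.10 to -0.68 elsewhere. Each of the 4 ratios was lower in both litter 3 libraries than in all others. For Fth1 to Ftl1 the margin was narrow, 2.89 in the litter 3 male against 2.90 in the litter 4 male. For Aco1 to Ireb2 it was -1.11 against -1.10 in the same libraries. Which gene stands first in a ratio is a choice, so the shared direction carries no meaning. They use the same counts as the results above and are no separate evidence.

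The profiles most like those of the 3 genes with the smallest litter p-values were sought among 13770 other tested genes, by the root mean square difference of centred log2 CPM over 8 libraries. For Tfrc these were Ska2 (0.05), Higd1a (0.08) and AI506816 (0.08), against a median of 0.38 over all genes. Ska2 held 24.2 to 25.3 CPM in litter 3 and 45.4 to 46.2 in litter 1. For Alas1 they were Ddx39b (0.06), Rap1gap2 (0.06) and Mtfp1 (0.06), against a median of 0.34. For Slc25a37 they were Wnk2 (0.05), Arhgef12 (0.07) and Adat1 (0.07), against 0.31. The 8 libraries, their depth and their litters are shared by all genes compared.

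Other genes of iron and heme handling were counted in the same way. Of 70 other genes in 4 lists, 60 were tested and 26 (43.3%) passed the edgeR litter test, against 32.1% of all tested genes. Without litter 3, 4 of 60 passed (6.67%), against 13.7% of all tested genes. In litter 3, 11 were higher and 13 lower, where 13.6% of all tested genes were higher and 14.8% lower. The median litter 3 difference was 0.06 for the other genes of iron entry, exit and storage, -0.02 for heme synthesis, 0.07 for heme breakdown and transport and -0.07 for iron-sulfur cluster assembly, with 0.00 over all tested genes. For sex, 0 of 60 passed by edgeR with or without the block. At an unadjusted p under 0.05 there were 2 without the block, Slc39a8 and Mms19, which are named for their values and lie outside the naming rule.

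Of the other genes of iron entry, exit and storage, 14 of 23 were tested and 7 passed by litter, 2 of them without litter 3. In litter 3, 3 were higher and 1 lower. Over all tested genes 32.1% passed by litter and 13.7% without litter 3, and 13.6% were higher and 14.8% lower in litter 3. Fbxl5, the iron-sensing ligase subunit that marks iron regulatory protein 2 for breakdown, held 84.0 and 81.5 CPM in litter 3 and 49.1 to 56.8 CPM elsewhere. Its litter 3 difference was 0.62 (SE 0.06, edgeR adjusted p = 3.7e-05), and the litter test without litter 3 gave 0.940. Hjv, hemojuvelin, a co-receptor of bone morphogenetic proteins, held 50.5 and 56.7 CPM in litter 3 and 63.7 to 85.5 CPM elsewhere (-0.47, SE 0.08, adjusted p = 0.00137). Without litter 3 its edgeR litter test gave an adjusted p of 0.918. For both genes litter 3 did not overlap the other litters. Pcbp2, an iron chaperone, was higher in litter 3 by 0.18 and lower in litter 1 with a difference of -0.29, and it passed the edgeR litter test without litter 3 (adjusted p = 0.0184). Bmp6, the ligand that induces hepcidin in the liver, held 0 to 42 counts per library, with 0 in the litter 3 female, and was higher in litter 2 by a log2 difference of 2.04 (edgeR adjusted p = 0.0283). In litter 2, all 10 endothelial and 6 of 9 tested fibroblast markers also passed as higher (edgeR). Of all tested genes 4.18% passed there in either direction. The median log2 differences of these lists were 2.14 and 0.89, and their part in the Bmp6 result was not tested.

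Some regulators of body iron were near or at the detection limit. Hamp, which encodes hepcidin, had 23 counts over all libraries and Tfr2, the second transferrin receptor, had 4, and neither was tested. Hfe, which binds the transferrin receptor, held 8.51 to 13.7 CPM, highest in litter 3, with an edgeR litter adjusted p of 0.0498, and 0.137 without litter 3. Cp, the copper oxidase ceruloplasmin, held 4.28 to 7.57 CPM (adjusted p = 0.137).

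All 12 other heme synthesis genes were tested and 6 passed by litter, 1 of them without litter 3, with 2 higher and 3 lower in litter 3. The shares of all tested genes were 32.1% by litter, 13.7% without litter 3, and 13.6% higher and 14.8% lower in litter 3. Tmem14c, which moves porphyrinogen within the mitochondrion, held 73.6 and 68.0 CPM in litter 3 and 80.5 to 96.5 CPM elsewhere (-0.39, SE 0.07, edgeR adjusted p = 0.00126). Uros, uroporphyrinogen synthase, differed by -0.35 and Urod, the decarboxylase after it, by 0.19. These successive enzymes thus changed in opposite directions in litter 3. Alas2 held 18.7 CPM in the litter 3 male, 8.01 in the litter 3 female and 3.20 to 7.57 elsewhere, with a litter 3 difference of 1.21 (SE 0.28, adjusted p = 0.00707). Without litter 3, the edgeR litter test gave adjusted p-values of 0.0749 for Tmem14c, 0.261 for Uros, 0.0509 for Urod and 0.706 for Alas2. Alas2 is also one of the erythroid markers, described below.

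In heme breakdown and transport, 13 of 14 genes were tested and 6 passed by litter, 1 of them without litter 3, with 3 higher and 4 lower in litter 3. Among all tested genes these shares were 32.1% by litter, 13.7% without litter 3, and 13.6% higher and 14.8% lower in litter 3. Flvcr2, a membrane transporter first described as a heme carrier, held 24.6 and 27.8 CPM in litter 3 and 17.4 to 22.4 CPM elsewhere (0.33, edgeR adjusted p = 0.0100). Cox10, which makes heme O for cytochrome oxidase, differed by -0.40, and Hccs, which attaches heme to cytochrome c, by -0.32, while Slc48a1, which carries heme out of lysosomes, differed by 0.19. Without litter 3, the edgeR litter test gave adjusted p-values of 0.0505 for Flvcr2, 0.795 for Cox10, 0.0672 for Slc48a1 and 0.00699 for Hccs. The inducible heme oxygenase Hmox1 held 1.51 to 2.53 CPM, with an edgeR litter adjusted p of 0.640.

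Of the iron-sulfur cluster genes, 21 of 21 were tested and 7 passed by litter, 0 of them without litter 3, with 3 higher and 5 lower in litter 3. Among all tested genes 32.1% passed by litter, so the count of 7 was near that share. Without litter 3 it was 13.7%, and 13.6% were higher and 14.8% lower in litter 3. Ciapin1, an electron donor of the cytoplasmic assembly line, held 36.6 and 35.1 CPM in litter 3 and 48.3 to 57.9 CPM elsewhere (-0.64, SE 0.08, edgeR adjusted p = 0.0001). Iba57, which acts late in mitochondrial assembly, held 39.7 and 31.98 CPM in litter 3 and 22.6 to 25.1 CPM elsewhere (0.56, SE 0.08, adjusted p = 0.00054). The mitochondrial factors Bola3 and Nfu1 were lower in litter 3, with differences of -0.34 and -0.31. Without litter 3, the edgeR litter test gave adjusted p-values of 0.880 for Ciapin1, 0.863 for Iba57, 0.0801 for Bola3 and 0.0777 for Nfu1.

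**Figure D5:**
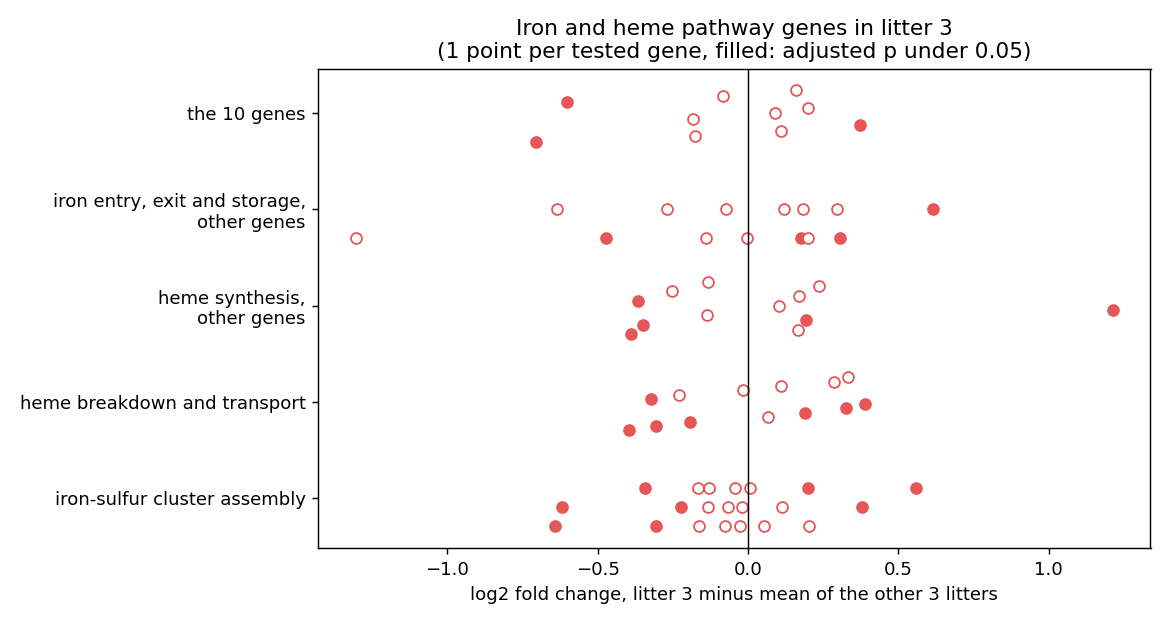
Difference of litter 3 from the mean of the other litters on the log2 scale (horizontal axis) for each tested gene of the 10 and of the 4 pathway lists, with filled points where the edgeR adjusted p was under 0.05 and vertical offsets only to separate points. Filled points lie on both sides of 0 in every list, 11 higher and 13 lower over the 4 lists.

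The summed level of red cell markers was highest in 1 library of litter 3. Of 16 erythroid markers 15 were in the table and 7 were tested, and Hbb-bh1 was at 0 throughout. They summed to 559 CPM in the litter 3 male, 206 CPM in the litter 3 female and 129 to 276 CPM elsewhere. The adult beta globin Hbb-bs held 293 CPM in the litter 3 male, 101 in the litter 3 female and 54.8 to 136 elsewhere. In litter 3, 2 of the 7 tested passed as higher, Alas2 and Hbb-bt, and 1 passed as lower (edgeR). Over all tested genes 13.6% passed as higher and 14.8% as lower. Hbb-bt was named after its values were seen. In litter 3, 7 of 12 cardiomyocyte markers, 7 of 9 tested fibroblast markers and 7 of 10 endothelial markers passed as lower (edgeR). The median log2 differences of these lists were -0.28, -1.83 and -1.44. Some cardiomyocyte markers lay higher without passing, such as Tnnt2 with a difference of 0.11. The endothelial comparison includes litter 2, where these markers summed to 115 to 187 CPM. Against litters 1 and 4, at 21.3 to 80.5 CPM, the litter 3 sum of 24.95 to 25.1 CPM did not stand apart. The part of the erythroid, cardiomyocyte, fibroblast and endothelial levels in the litter 3 results was not tested.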

How the data were processed

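The values are unnormalized counts of reads for each gene, deposited for all 8 libraries together. Per the submitters' processing notes STAR 2.7.3a and the build mm10 were used. The counting program, annotation and strand setting are not given in the sources used here. The labels name polyA RNA as the molecule and a stranded total RNA kit. The 10 genes, the wider lists and the tests were chosen with earlier results of these data known. Of 139 listed genes 138 had an entry, 4 of them under an older symbol.

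Genes were filtered with filterByExpr and scaled by TMM in edgeR 4.0.16 (R 4.3.3). Sex was tested without a block in all 8 libraries, and litter with sex as a covariate, by the quasi-likelihood test with Benjamini-Hochberg adjustment and a threshold of 0.05. CPM are the deposited counts scaled to a library total of 1000000, without the TMM factors, which ran from 0.951 to 1.02. Statements that a litter lay above or below other libraries refer to CPM. Alternatives were DESeq2 1.42.0, other scalings and filters, a litter block, and libraries or litters left out. The sex test without litter 3 and the scaling without erythroid genes were chosen after seeing the data. All 10 genes are named. From each pathway list up to 4 genes with the smallest litter p-value were named, with 6 fixed genes, and from each marker list up to 3 genes of the highest level.

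The labels pair libraries by litter: deviations of littermates correlated at 0.506, 0.503, 0.696 and 0.367 over 13771 genes, and other pairs at -0.482 to 0.27. The tests were tried on simulated counts with 200 of 13771 genes changed by 1 on the log2 scale. They recovered 93% for sex, 92.5% with the block, 82.5% for litter and 87.5% for litter 3. Among the members, the largest differences were -0.71 for litter (Tfrc in litter 3) and 0.11 for sex without the block (Ireb2). Recovery of changes of that size was not simulated. The biological coefficient of variation in the data was 17.3% in the sex fit without the block and 7.28% with it. For sex the simulated counts held no litter differences, and their spread came from the fit with litter and sex. The near-equal simulated shares of these fits follow from that setting. The 93% therefore cannot be taken as the recovery of the unblocked sex test in these data, and may be too high. Precision is limited by 2 libraries per litter, and members held between 302 and 29113 counts per library. Some results of single genes in the wider lists are not reported here.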

Additional observations from a re-analysis of the deposited data

Results flagged for a closer look

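Among 28 sets of 4 same-sex libraries, 2 held a library far from its group by Dixon's 95% criterion, where chance alone would give about 1.4. The Alas1 level in the litter 3 female, 136.859 CPM, lay far below the other females at 219 to 231 CPM. The Fech level in the litter 3 male, 117.373 CPM, lay far above the other males at 102 to 104 CPM. Both belong to litter 3, whose values for these genes are given with the litter results.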

How the results depend on the processing

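The sex result was 0 of 10 genes under every alternative run, including the litter as a replicate block (0 of 10), although the block raised the calls over all genes from 6 to 29. The litter count was 5 of 10 and ranged from 4 to 5 when 1 library was left out. Over all genes the litter test called 4427, and 1898 without litter 3. When 1 library was left out, the count ranged from 0 to 4 for litter 1 (359 to 1869 over all genes), from 0 to 1 for litter 2 (153 to 752), from 2 to 4 for litter 3 (1704 to 3791) and from 0 to 1 for litter 4 (322 to 1302). The lone library of a litter was then assumed to vary like the others. Without the filter the litter 2 count was 1, and 1249 of all genes passed in place of 575, against 345 with a mean of at least 50 counts and 365 with no sex term. The litter 4 count was 2 with library size alone, without the filter and with mitochondrial genes left out, and with no sex term 834 of all genes passed in place of 1447. Of 480 values per gene under other settings 469 kept their direction and side of the threshold, 5 were weaker and 6 stronger. The Fth1 litter call was lost in 4 of 12 settings other than leaving out 1 library: library size alone (adjusted p = 0.0622), no sex term (0.0655), without litter 1 (0.115) and without litter 4 (0.0555). The cause was not tested. With the longest transcript as the length, levels were 515 CPM per kilobase for Fth1, 133 for Ftl1, 68.1 for Tfrc, 58.2 for Alas1, 18.03 for Ireb2, 16.3 for Fech, 13.6 for Aco1, 7.88 for Slc11a2, 5.45 for Slc25a37 and 5.34 for Slc40a1, since the length is shorter.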
